A study of Mus musculus with 12 samples.

Results

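The 10 genes described here serve protein folding in the endoplasmic reticulum (ER) and the signalling that answers misfolding there. Hspa5 (also called BiP), Hsp90b1 (GRP94) and Calr (calreticulin) are chaperones of the ER lumen, Pdia3, Pdia4 and Pdia6 are disulfide isomerases, Dnajb9 is an Hsp40-type partner of Hspa5, and Xbp1, Atf4 and Ddit3 (CHOP) are transcription factors of the stress response. They were taken by symbol from a table of 24918 genes. Each of the 10 was found in 1 row, and all 10 were among the 14721 genes that passed a filter on low values, which asked for log2 of 10 in 3 or more libraries.

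The values came from RNA sequencing of whole hearts of C57BL/6 mice, 2 months old and untreated, in 12 libraries. By their titles, 3 libraries each were male cardioGRKO, male floxed, female cardioGRKO and female floxed. Floxed mice carry loxP sites in both copies of the glucocorticoid receptor gene (Nr3c1) and keep the receptor. The cardioGRKO mice carry the same sites and αMHC-Cre, a recombinase driven by a promoter of cardiomyocytes, so an effect of Cre and one of the deletion cannot be told apart. Only the titles give the groups, because wild-type is entered as genotype for all 12 libraries. The series asked which transcripts change when cardiomyocytes lack the receptor, and whether this depends on sex. It is not stated whether the 3 libraries of each group came from different animals, and p-values measure only their spread, which may be technical. All values are log2 levels that the authors deposited after normalization. They are not divided by transcript length, so levels are not compared between genes.

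Proteins that enter the secretory pathway fold in the ER with the help of Hspa5, Hsp90b1, calreticulin with its partner Pdia3, and the other disulfide isomerases. When unfolded proteins build up, the sensors ATF6, IRE1 and PERK are released from Hspa5. Cleaved ATF6 and spliced XBP1 act on the promoters of chaperone genes, while PERK slows translation, which favours the making of ATF4 and, through it, of CHOP, a factor linked to cell death. Calreticulin and Hsp90b1 also bind calcium, which the same compartment of cardiomyocytes stores for contraction. The glucocorticoid receptor is a transcription factor that binds glucocorticoid hormones.

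Nr3c1, the targeted gene, was read first, since it checks the labels. It had 10.83, 10.85 and 10.88 in the male cardioGRKO libraries, against 11.40, 11.42 and 11.42 in the male floxed libraries. It fell by 0.56 on the log2 scale (limma, adjusted p = 2.4e-11), and these groups did not overlap. The libraries labelled female cardioGRKO had 10.90, 10.90 and 10.85, against 10.74, 10.71 and 10.78 in those labelled female floxed, where the gene was thus 0.14 higher under the cardioGRKO label (limma, adjusted p = 0.00038). Nr3c1 therefore goes against the female labels, and a direction given below between these groups follows the labels as they stand. Fkbp5, which glucocorticoids are known to induce, did not go against them. By label it was lower in cardioGRKO libraries, at -0.21 in males and -0.18 under the female labels (limma, adjusted p = 5.8e-05 and 0.00042). Female minus male, Nr3c1 differed by -0.67 within floxed (limma, adjusted p = 1.4e-12) and by 0.03 within cardioGRKO (adjusted p = 0.41). Both female groups thus lay closer to the male cardioGRKO mean (10.85) than to the male floxed mean (11.41). Exchanging the female labels would not change that. The corneal keratin Krt12 had levels of 13.13 and 13.98 in replicates 1 and 2 labelled female floxed, against 7.16 to 8.49 in the other 10 libraries. Results of the 10 genes and of the related lists under the female labels are given with and without those 2 libraries. The cardiomyocyte myosin Myh6 lay between 19.34 and 19.51 in all 12 libraries.

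The ER stress response element (ERSE) is the promoter sequence through which ATF6, together with the factor NF-Y, is known to act on chaperone genes. It was searched as CCAAT and CCACG separated by 9 bases of any kind, on both strands, in windows from 250 bases before to 50 after the RefSeq start site of each gene (build GRCm38.p6). The search was chosen after the values of the 10 genes had been seen and has no test. Since the element is known from chaperone genes, matches among them add no evidence of their own. The element was found in 39 of 32851 windows (0.119%), and in 4 of the 10 listed genes, which were Hspa5, Hsp90b1, Calr and Pdia6. Their windows up to the start site are shown 5′ to 3′ on the strand of the gene, with the CCAAT and CCACG parts in capitals, and as CGTGG and ATTGG where the element lies on the other strand. The Pdia3 window, which had no match, is shown beside them because Pdia3 is of the same family as Pdia6. Pdia4, also of that family, had no match either, though it was called higher in males and under the female labels.
Hspa5 (chr2:34771840-34772089, + strand): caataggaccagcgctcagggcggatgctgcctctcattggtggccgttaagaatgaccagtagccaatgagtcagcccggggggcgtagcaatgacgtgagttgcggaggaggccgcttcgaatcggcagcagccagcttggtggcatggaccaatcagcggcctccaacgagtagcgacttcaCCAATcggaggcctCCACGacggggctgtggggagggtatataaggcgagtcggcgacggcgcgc
Hsp90b1 (chr10:86705445-86705694, - strand): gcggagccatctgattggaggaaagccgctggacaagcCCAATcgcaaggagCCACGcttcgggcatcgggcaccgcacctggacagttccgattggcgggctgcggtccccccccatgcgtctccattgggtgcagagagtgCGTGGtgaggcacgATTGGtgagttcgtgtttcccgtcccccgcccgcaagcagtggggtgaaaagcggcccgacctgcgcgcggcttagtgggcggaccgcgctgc
Calr (chr8:84846932-84847181, - strand): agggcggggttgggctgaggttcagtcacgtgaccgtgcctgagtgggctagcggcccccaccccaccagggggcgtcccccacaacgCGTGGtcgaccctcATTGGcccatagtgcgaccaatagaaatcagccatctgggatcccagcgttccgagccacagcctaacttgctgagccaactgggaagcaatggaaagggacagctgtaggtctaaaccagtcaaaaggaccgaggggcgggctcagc
Pdia6 (chr12:17266339-17266588, + strand): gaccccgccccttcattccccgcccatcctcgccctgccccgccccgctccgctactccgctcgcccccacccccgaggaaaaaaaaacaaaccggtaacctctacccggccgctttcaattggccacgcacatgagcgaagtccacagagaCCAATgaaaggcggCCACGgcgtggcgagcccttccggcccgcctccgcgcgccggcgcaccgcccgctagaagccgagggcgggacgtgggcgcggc
Pdia3 (chr2:121413652-121413901, + strand): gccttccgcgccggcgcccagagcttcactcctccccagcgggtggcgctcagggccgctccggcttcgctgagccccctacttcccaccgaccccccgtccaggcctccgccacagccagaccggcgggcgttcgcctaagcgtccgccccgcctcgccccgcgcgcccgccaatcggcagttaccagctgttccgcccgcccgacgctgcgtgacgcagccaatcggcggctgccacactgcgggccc

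Counted from the start site, the element lay from -65 to -47 in Hspa5, from -98 to -80 in Pdia6 and, on the other strand, from -162 to -144 in Calr. Hsp90b1 had a pair of them, from -212 to -194 and, on the other strand, from -107 to -89. The parts alone were common. CCAAT was in 9 of the 10 windows (37.4% of all windows) and CCACG in 7 (32.8%). No listed gene held ERSE-II (ATTGG and CCACG separated by 1 base, 0.0365% of windows), the unfolded protein response element TGACGTGG (0.676%), the element TGATGNAA bound by C/EBP and ATF factors (3.97%) or the glucocorticoid receptor palindrome of AGAACA and TGTTCT separated by 3 bases (0.00913%). A match describes the letters and does not show that a factor binds, and a window without a match says nothing about factors acting elsewhere.

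**Figure D1:**
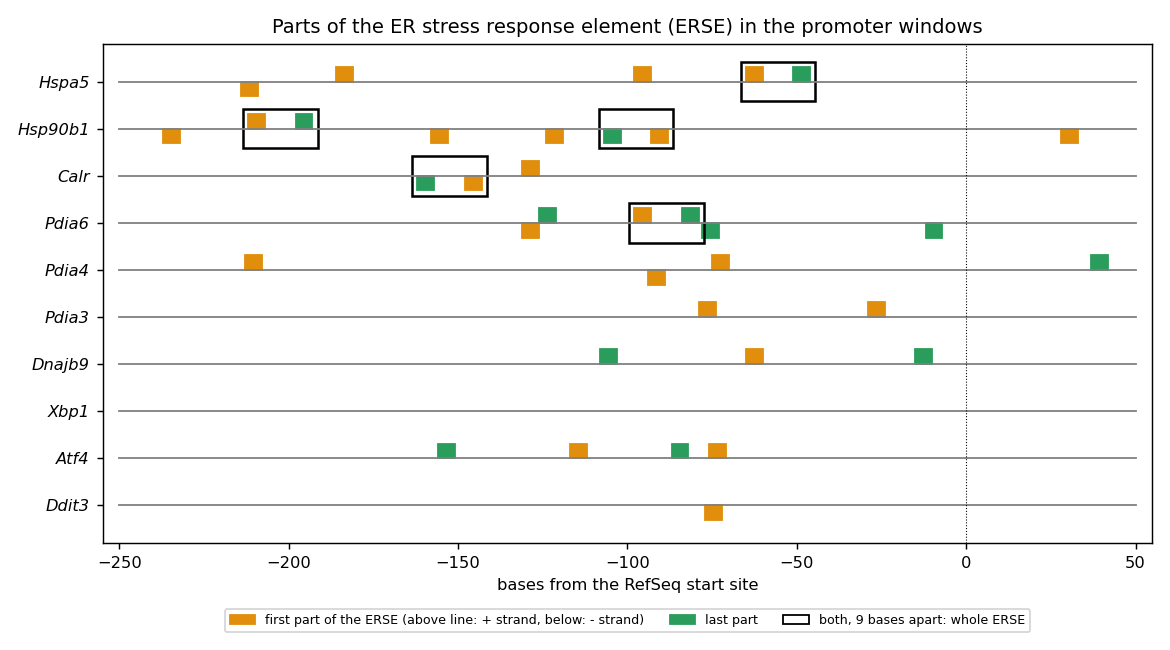
Positions of the CCAAT part (orange) and the CCACG part (green) of the ER stress response element in the promoter windows of the 10 genes, in bases from the RefSeq start site, with boxes around whole elements. Marks above a line lie on the strand of the gene and those below on the other strand. Whole elements are present in Hspa5, Hsp90b1 (a pair), Calr and Pdia6, and the other 6 windows hold at most the parts.

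In males, 6 of the 10 genes were higher in cardioGRKO than in floxed hearts and none was lower. The 6 were Ddit3, Pdia6, Calr, Pdia4, Hsp90b1 and Xbp1, and their increases were small, between 0.08 and 0.18 on the log2 scale, or 6.00% to 13.2%. A gene is called here where limma's p, adjusted over all genes tested by the Benjamini-Hochberg method, was under 0.05. Among all 14721 genes, 27.4% were called (12.8% higher and 14.6% lower). The median difference of the 10 genes was 0.09, against -0.0021 for all genes tested. In the libraries labelled female, 6 of 10 were also higher under the cardioGRKO label and none was lower, against 29.3% of all genes called (15.2% higher and 14.0% lower). The 4 largest of these increases were 38.0% for Hsp90b1, 29.3% for Pdia6, 24.8% for Calr and 23.8% for Hspa5. The median of the 10 was 0.11, against -0.0004 for all genes. With the 2 female labels exchanged, an alternative chosen after the data were seen, every sign under the female labels turns, so that 6 of the 10 are lower in cardioGRKO, with differences of -0.47 for Hsp90b1, -0.37 for Pdia6, -0.32 for Calr and -0.31 for Hspa5 on the log2 scale. In whole heart, more RNA per cell and more cells of a type that is rich in a transcript cannot be told apart.

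**Figure D2:**
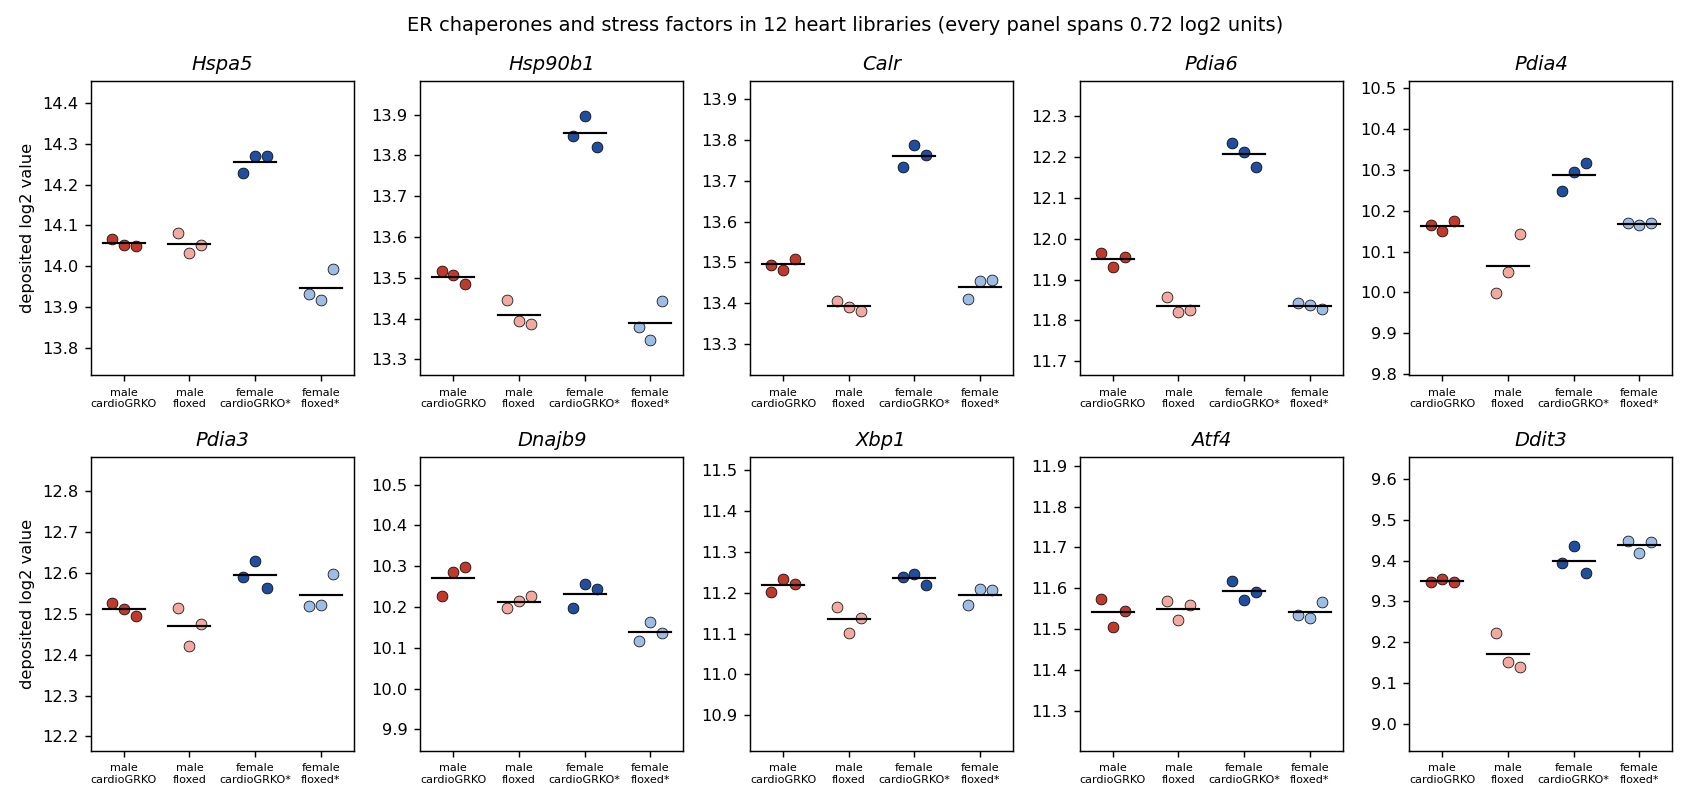
Deposited log2 level (vertical axis, each panel spanning the same 0.72 log2 units) of each of the 10 genes in the 12 libraries, by group, with the group mean as a bar. The asterisk marks groups whose labels Nr3c1 goes against. In the top row the libraries labelled female cardioGRKO lie above all others for Hspa5, Hsp90b1, Calr and Pdia6, and in the bottom row the male floxed libraries lie below all others for Ddit3.

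Among the lumenal chaperones, Hspa5, the main Hsp70 of the ER and the protein that holds the stress sensors inactive, was not called between the male groups. It had 14.07, 14.05 and 14.05 in male cardioGRKO libraries, against 14.08, 14.03 and 14.05 in male floxed libraries, which overlapped. The difference was 0.00 (SE 0.02, 95% interval -0.04 to 0.04; limma, adjusted p = 0.97). It was called only after quantile normalization, at 0.06 (adjusted p = 0.0093), and turned to -0.01 after centring each library on its median. In the libraries labelled female cardioGRKO it had 14.23, 14.27 and 14.27, against 13.93, 13.92 and 13.99 in those labelled female floxed. All cardioGRKO values lay above all floxed values, with a difference of 0.31 (SE 0.02, 95% interval 0.27 to 0.35; adjusted p = 8.4e-09).

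Hsp90b1, the Hsp90 of the ER, which folds integrins, Toll-like receptors and insulin-like growth factors, had the largest of the 20 genotype differences of the 10 genes in both sexes. In the libraries labelled female cardioGRKO it reached 13.85, 13.90 and 13.82, against 13.38, 13.35 and 13.44 in those labelled female floxed. The groups were far apart, at a difference of 0.47 (SE 0.02, 95% interval 0.41 to 0.52; limma, adjusted p = 8e-10). The male cardioGRKO libraries had 13.52, 13.51 and 13.48, against 13.45, 13.39 and 13.39 in male floxed libraries. These groups did not overlap either, but the difference was only 0.09 (SE 0.02; adjusted p = 0.0085). In the GENCODE M21 annotation, 415 of the 4032 exonic bases of Hsp90b1 also belong to 1810014B01Rik on the other strand. Reads of these 2 genes cannot be told apart if counting ignored strand. On its own strand Hsp90b1 shares 133 bases with Gm25745 and 84 with Gm15344.

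Calr, a lectin chaperone that also buffers ER calcium, had 13.49, 13.48 and 13.51 in male cardioGRKO libraries, against 13.41, 13.39 and 13.38 in male floxed libraries. The groups were separate, with a difference of 0.10 (SE 0.02; limma, adjusted p = 0.00038). The libraries labelled female cardioGRKO had 13.73, 13.79 and 13.76, against 13.41, 13.46 and 13.46 in those labelled female floxed. Here too every cardioGRKO value was above every floxed value, and the difference was 0.32 (SE 0.02, 95% interval 0.28 to 0.36; adjusted p = 1.7e-09).

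The 3 disulfide isomerases differed among themselves. Pdia6, which forms and rearranges disulfide bonds and binds Hspa5, had 12.23, 12.21 and 12.18 in the libraries labelled female cardioGRKO, against 11.84, 11.84 and 11.83 in those labelled female floxed. That is a gap without overlap of 0.37 (SE 0.02, 95% interval 0.33 to 0.41; limma, adjusted p = 9.4e-10). In male cardioGRKO libraries it had 11.97, 11.93 and 11.96, against 11.86, 11.82 and 11.83 in male floxed libraries, also without overlap, a difference of 0.12 (SE 0.02; adjusted p = 0.00028).

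Pdia4 (ERp72), an isomerase found in complexes with Hspa5 and Hsp90b1, was called in both sexes at about the same size. It had 10.17, 10.15 and 10.18 in male cardioGRKO libraries, against 9.999, 10.05 and 10.14 in male floxed libraries, a difference of 0.10 (SE 0.03; limma, adjusted p = 0.023). The 3 floxed libraries were widely spread, and the male call was lost without male cardioGRKO replicate 1 or 3 or male floxed replicate 1 or 2 (adjusted p from 0.060 to 0.13). In the libraries labelled female cardioGRKO it had 10.25, 10.29 and 10.32, against 10.17 in each of those labelled female floxed, a difference of 0.12 (SE 0.03; adjusted p = 0.0085) without overlap. Pdia3 (ERp57), the isomerase that works with calreticulin and calnexin on glycoproteins, was not called in either sex. Its difference was 0.04 in males (95% interval -0.02 to 0.10; adjusted p = 0.30) and 0.05 under the female labels (95% interval -0.01 to 0.10; adjusted p = 0.19), with overlapping groups both times. Without female floxed replicate 3 the difference under the female labels was 0.07 and was called (adjusted p = 0.030).

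Dnajb9 (ERdj4), a co-chaperone that acts on Hspa5 and on IRE1, had 10.20, 10.26 and 10.24 in the libraries labelled female cardioGRKO, against 10.12, 10.16 and 10.14 in those labelled female floxed. The groups were separate and the difference was 0.09 (SE 0.03; limma, adjusted p = 0.011). In males the difference was 0.06 (SE 0.03; adjusted p = 0.11), with overlap, and it was called only without male cardioGRKO replicate 1 (0.08, adjusted p = 0.043). Xbp1, whose mRNA is spliced by IRE1 to code for the active factor, had 11.20, 11.23 and 11.22 in male cardioGRKO libraries, against 11.16, 11.10 and 11.14 in male floxed libraries. The cardioGRKO values were all higher, by 0.08 on average (SE 0.02; adjusted p = 0.0076). Under the female labels the difference was 0.04 (95% interval -0.01 to 0.09; adjusted p = 0.19). Gene totals do not separate spliced from unspliced Xbp1.

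Atf4, the factor made when PERK and related kinases act on eIF2, was not called in either sex. Its difference was -0.01 in males (95% interval -0.06 to 0.04; limma, adjusted p = 0.83), turning to 0.0046 after quantile normalization, and 0.05 under the female labels (95% interval 0.00 to 0.10; adjusted p = 0.11). Its groups did not overlap under the female labels, where it had 11.62, 11.57 and 11.59 in cardioGRKO libraries, against 11.53, 11.53 and 11.57 in floxed libraries. ATF4 is regulated mainly in translation, which transcript levels do not show.

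Ddit3, which codes for CHOP, had the largest male difference of the 10. All 3 male cardioGRKO libraries had 9.35, against 9.22, 9.15 and 9.14 in male floxed libraries, a difference of 0.18 (SE 0.03, 95% interval 0.12 to 0.24; limma, adjusted p = 9e-05). The libraries labelled female cardioGRKO had 9.39, 9.43 and 9.37, against 9.45, 9.42 and 9.45 in those labelled female floxed. These overlapped, and the difference was -0.04 (95% interval -0.10 to 0.02; adjusted p = 0.33). Of the 1713 exonic bases of Ddit3, 68 are shared with Mars, a tRNA synthetase gene on the other strand.

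In all, 6 of the 10 genes had male groups that did not overlap (Hsp90b1, Pdia4, Pdia6, Calr, Xbp1 and Ddit3), against 41.4% of all genes tested. Under the female labels 8 of 10 did not overlap, all but Pdia3 and Ddit3, against 40.7% of all genes. Without the 2 libraries labelled female floxed that held Krt12, the differences under the female labels were 0.41 for Hsp90b1, 0.38 for Pdia6, 0.30 for Calr and 0.26 for Hspa5, with limma adjusted p of at most 1.5e-10. That fit leaves 1 female floxed library, which is assumed to vary like the other groups. Pdia4, at 0.12, and Dnajb9, at 0.10, were no longer called (adjusted p = 0.060 and 0.088), so 4 of the 10 were called in it, and 2734 genes in all, against 4309 with those libraries.

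**Figure D3:**
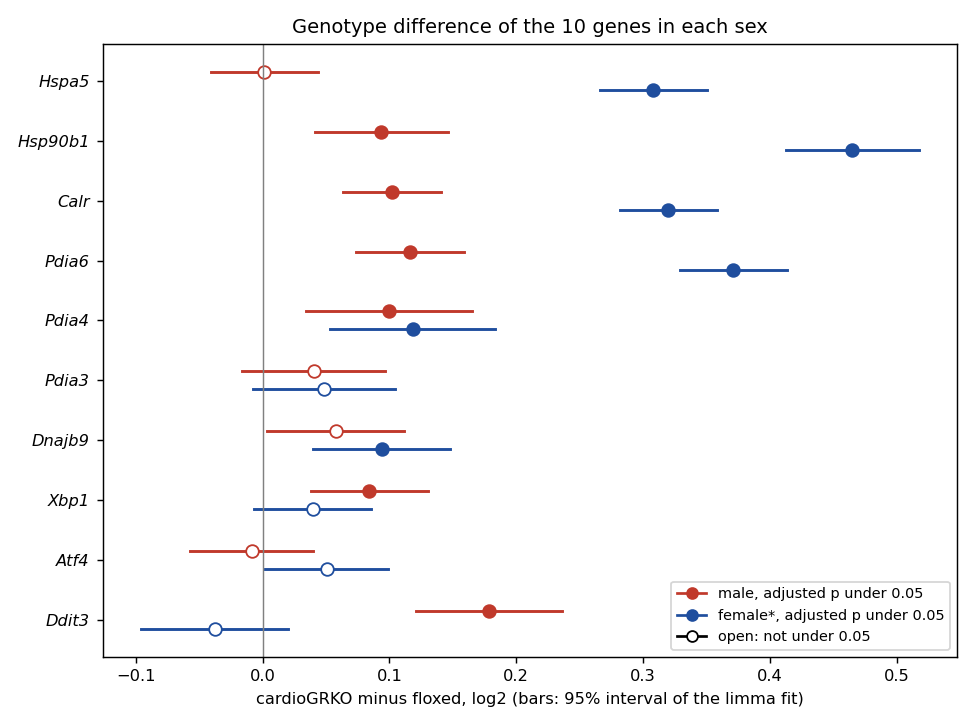
Difference of the 10 genes between cardioGRKO and floxed libraries on the log2 scale, with 95% intervals from the limma fit, in males (red) and under the female labels (blue, with an asterisk because Nr3c1 goes against these labels). Filled points have an adjusted p under 0.05. The blue intervals of Hspa5, Hsp90b1, Calr and Pdia6 lie to the right of the red ones, that of Ddit3 lies to the left, and the intervals of the other 5 genes overlap.

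Whether the genotype difference depended on sex was tested directly, as the male difference minus the female one. With the labels as they stand, 5 of the 10 genes passed the test, 1 of them with the larger value in males and 4 with the larger value under the female labels, against 31.3% of all genes (14.3% and 17.0%). The 4 were Hsp90b1 (-0.37, SE 0.03; limma, adjusted p = 3.7e-07), Hspa5 (-0.31, SE 0.03; adjusted p = 2.8e-07), Pdia6 (-0.25, SE 0.03; adjusted p = 2.6e-06) and Calr (-0.22, SE 0.03; adjusted p = 5.1e-06). They are the 4 genes with an ERSE in the window, but that search was chosen after these values were seen, and a link was not tested. Ddit3 went the other way, at 0.22 (SE 0.04; adjusted p = 0.00036). These 5 calls held in each of the 12 fits that left out 1 library, and without both Krt12 libraries the values were -0.32 for Hsp90b1, -0.26 for Hspa5, -0.26 for Pdia6, -0.20 for Calr and 0.22 for Ddit3. The shares of all genes above are for the labels as they stand, and none is given for the exchange that follows. The test rests on the female labels. With these exchanged, 8 of the 10 genes passed it, all with the larger value in males, with 0.56 for Hsp90b1, 0.49 for Pdia6, 0.42 for Calr, 0.31 for Hspa5, 0.22 for Pdia4 (adjusted p = 0.0015), 0.15 for Dnajb9 (adjusted p = 0.0052), 0.14 for Ddit3 (adjusted p = 0.013) and 0.12 for Xbp1 (adjusted p = 0.0073). With the labels as they stand the other 5 genes did not pass, with adjusted p from 0.18 for Atf4 to 0.89 for Pdia3. Their 95% intervals still allow a difference between the sexes, for example of -0.11 to 0.07 for Pdia4 and of -0.09 to 0.07 for Pdia3.

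Compared by sex within cardioGRKO, 6 of the 10 genes were higher in the libraries labelled female than in those labelled male and none was lower, against 24.2% of all genes called (11.9% higher and 12.4% lower). Hsp90b1 differed by 0.35 (SE 0.02; limma, adjusted p = 2e-08), Calr by 0.27, Pdia6 by 0.26, Hspa5 by 0.20, Pdia4 by 0.12 and Pdia3 by 0.08. In 7 of 10 genes the groups did not overlap, against 40.1% of all genes. The Pdia3 call was the least firm. It was lost in 4 of the 12 fits without 1 library (adjusted p up to 0.13) and after quantile normalization (adjusted p = 0.059). Only leaving out a cardioGRKO library can change its difference. With the female labels exchanged, 1 of the 10 was higher and 5 were lower in this comparison, among them Pdia6 (-0.11), Hsp90b1 (-0.11), Hspa5 (-0.11) and Calr (-0.05). No share of all genes is given for that exchange, so these counts have no background beside them.

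Within floxed, 5 of the 10 genes were higher and 2 lower in the libraries labelled female than in male ones, against 44.2% of all genes called (21.5% higher and 22.7% lower), and 7 of 10 did not overlap, against 50.8%. Ddit3 was higher by 0.27 (SE 0.03; limma, adjusted p = 6.6e-07) and Hspa5 was lower, with a difference of -0.11 (SE 0.02; adjusted p = 0.00034). Both calls held in the 12 fits that left out 1 library, though only leaving out a floxed library can change these differences. The other 5 calls, Pdia4 (0.10), Pdia3 (0.08), Xbp1 (0.06), Calr (0.05) and Dnajb9 (-0.07), were less firm. Without female floxed replicate 3, male floxed replicate 2 or male floxed replicate 3, the number of called genes was 3, and it was also 3 without both Krt12 libraries. Hsp90b1 (-0.02) and Pdia6 (0.00) were not called here. With the female labels exchanged, 8 of the 10 were higher and 0 lower, with Hsp90b1 at 0.45, Pdia6 at 0.37 and Hspa5 at 0.20. Here too the share of all genes with the labels exchanged is not given. Both sex comparisons share libraries with the genotype comparisons and add no independent evidence to them.

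Outside the listed genes, 33 genes had an ERSE in the window, of which 16 were tested. Under the female labels 4 were higher in cardioGRKO and 1 was lower. Those that rose were Canx (0.28; limma, adjusted p = 3.7e-08), calnexin, the membrane-bound relative of calreticulin, Acacb (0.21; adjusted p = 4e-07), an acetyl-CoA carboxylase of the mitochondrial surface, Dnajc3 (0.13; adjusted p = 0.0023), an Hspa5 co-chaperone, and Xlr3a (0.04; adjusted p = 0.0076). Hnrnpa3, an RNA-binding protein, fell by 0.10 (adjusted p = 0.0095). The median of the 16 was 0.01, against 0.00 for the 11555 tested genes with a window, of which 1762 were higher and 1601 lower. Creld2, Alg12, Ero1b, Derl3 and Syvn1, which also serve the ER, had differences from -0.01 to 0.07 and were not called. In males 1 of the 16 was higher, Creld2 (0.09; adjusted p = 0.048), and 4 were lower, among them Acacb (-0.19; adjusted p = 1.1e-06), against 1454 higher and 1680 lower of the 11555. The element was thus also present in genes that were not called.

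**Figure D4:**
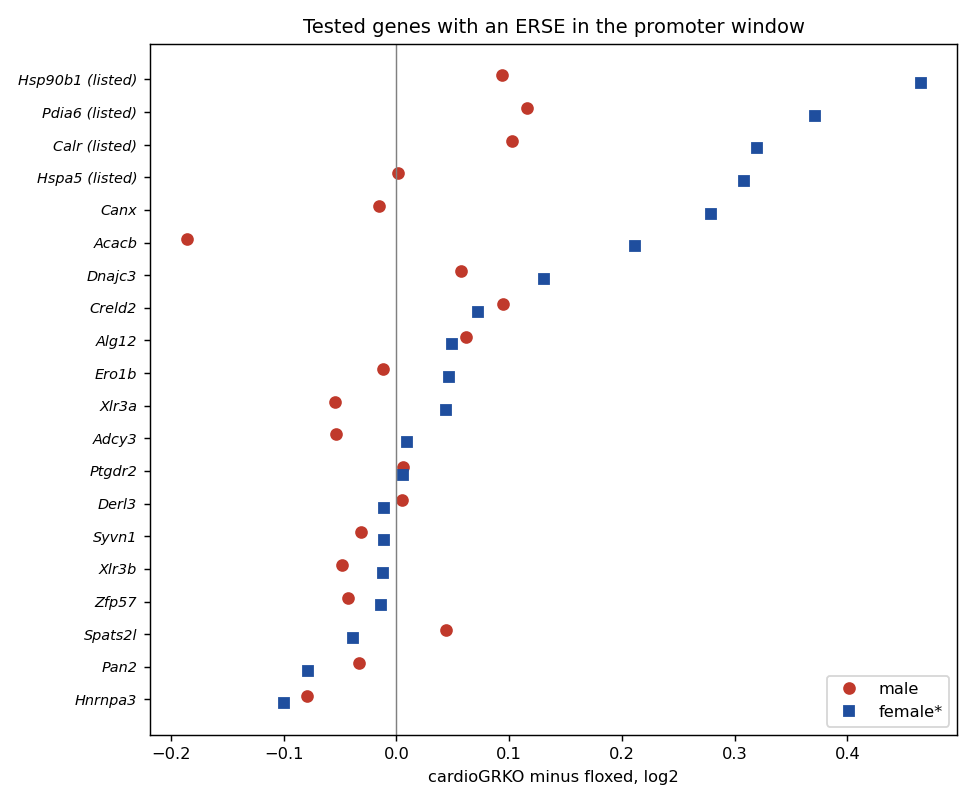
Difference between cardioGRKO and floxed libraries on the log2 scale for the 20 tested genes with an ERSE in the promoter window, in males (red circles) and under the female labels (blue squares, with an asterisk because Nr3c1 goes against these labels). The 4 listed genes have the 4 largest values under the female labels, from 0.31 to 0.47, followed by Canx at 0.28, and 11 of the 20 genes were not called there.

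The neighbours of the 10 genes in ER folding were counted from 13 lists of related genes. The shares of all genes called were 27.4% in males and 29.3% under the female labels. Of 16 tested Hsp70 partners and other lumenal chaperones, 6 were higher and 0 lower in male cardioGRKO hearts, and 7 were higher and 0 lower under the female labels. That is 37.5% and 43.8% called. Creld1 rose by 0.15 in males and by 0.23 under the female labels, and the collagen chaperone Serpinh1 by 0.09 in males and 0.14 under the female labels. Dnajb11, an Hspa5 co-chaperone, rose under the female labels (0.22; limma, adjusted p = 1.3e-05) and was at 0.02 in males (adjusted p = 0.68). Of 17 other disulfide isomerases and oxidases, 6 were higher and 1 lower in males, against 2 higher and 3 lower under the female labels. Their shares called were 41.2% and 29.4%, the latter near the share of all genes. P4hb, the founding disulfide isomerase, rose by 0.39 in males (adjusted p = 2.1e-11) and by 0.11 under the female labels (adjusted p = 0.00013). Tmx1, a membrane-bound thioredoxin, fell by 0.53 in males (adjusted p = 1.1e-10) and was 0.16 higher under the female labels (adjusted p = 0.00021).

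Of 13 lectin chaperones and glycoprotein folding genes, 3 were higher and 0 lower in males, and 5 higher and 1 lower under the female labels. In males 23.1% were called, below the 27.4% of all genes, and under the female labels 46.2%, against 29.3%. Canx was at -0.02 in males (limma, adjusted p = 0.63), beside its rise of 0.28 under the female labels. The calcium-binding Rcn3 rose by 0.17 in males and fell by 0.21 under the female labels, while Rcn2 rose by 0.14 in males and was at 0.04 under the female labels (adjusted p = 0.29). Of 8 ER prolyl isomerases, 4 were higher and 0 lower in males, against 1 higher and 4 lower under the female labels. These are 50% and 62.5% called. Fkbp14 and Fkbp7 rose in males by 0.16 and 0.15. Under the female labels Fkbp10 and Ppib, which assist collagen folding, fell by 0.18 and 0.12 (adjusted p = 0.00035 and 0.00053).

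Of 15 stress sensors and their processing genes, 1 was higher and 2 lower in males (2 higher and 1 lower after quantile normalization), and 4 higher and 3 lower under the female labels. In males 20.0% of them were called, below the 27.4% of all genes, and under the female labels 46.7%, against 29.3%. Atf6, the sensor whose cleaved form binds the ERSE, was 0.28 higher under the female labels (limma, adjusted p = 7.3e-08) and at -0.05 in males (adjusted p = 0.14). Creb3l2, a related membrane-bound factor, was 0.45 higher in males and fell by 0.21 under the female labels. Wfs1, an ER membrane protein that restrains ATF6, fell by 0.08 in males and was 0.19 higher under the female labels.

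Of 12 genes for eIF2 kinases, phosphatases and eIF2B, 1 was higher and 2 lower in males (25.0% called). Under the female labels 2 were higher and 4 lower (50% called). Ppp1r15a (GADD34), the phosphatase subunit that CHOP is known to induce, was 0.29 higher in males (limma, adjusted p = 1.1e-07), and fell by 0.15 under the female labels (adjusted p = 0.00021). Nck1 fell by 0.13 in males, and Eif2b1 fell by 0.11 under the female labels. Among 31 tested targets of ATF4 and CHOP, 3 were higher and 3 lower in males, and 4 higher and 4 lower under the female labels. That is 19.4% and 25.8% called, against 27.4% and 29.3% of all genes, and the activity of these factors was not tested. Eif4ebp1, which restrains translation, was 0.16 higher in males, and Gdf15, a secreted stress factor, was 0.09 higher in males and 0.20 higher under the female labels. Wars, a tRNA synthetase, fell by 0.14 in males and was 0.12 higher under the female labels, and Slc3a2, an amino acid transporter subunit, fell by 0.11 under the female labels.

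Of 29 genes of ER-associated degradation, 3 were higher in males and 6 under the female labels, with 0 lower both times, which is 10.3% and 20.7% called, below the shares of all genes. Herpud1 rose by 0.13 in males and Nploc4 by 0.13 under the female labels. Of 25 genes for translocation, signal peptidase and oligosaccharyl transferase, 4 were higher in males and 5 under the female labels, again with 0 lower, or 16.0% and 20.0% called, also below those shares. After quantile normalization 1 of them was lower under the female labels. Ostc rose by 0.13 in males and 0.18 under the female labels, Ddost by 0.11 in males, and Spcs3, a signal peptidase subunit, by 0.27 under the female labels (limma, adjusted p = 8.6e-08). The 13 death genes linked to ER stress had 2 higher and 3 lower in each sex. That is 38.5% called both times, against 27.4% and 29.3% of all genes. But in males 4 were higher and 2 lower after quantile normalization, and 2 higher and 4 lower after median centring. Bnip3 fell by 0.39 in males. Bcl2 was higher by 0.22 in males and 0.18 under the female labels, and Bcl2l11 was lower, at -0.11 in males and -0.20 under the female labels. Mcl1 fell by 0.13 under the female labels.

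Next come genes that handle ER calcium and chaperones outside the ER. Of 13 calcium channels, pumps and sensors, 2 were higher and 6 lower in males, against 6 higher and 2 lower under the female labels. Each is 61.5% called, against 27.4% and 29.3% of all genes. With the female labels exchanged 2 were higher and 6 lower. Atp2a2 (SERCA2), the pump that fills the calcium store, fell by 0.20 in males and was 0.20 higher under the female labels (limma, adjusted p = 3.3e-10 and 1e-09), and the male difference minus the female one was -0.40 (adjusted p = 4.7e-12). Hrc, a calcium buffer of that store, fell by 0.20 in males and was 0.24 higher under the female labels, and Ryr2, the release channel, fell by 0.37 in males. Of 13 mitochondrial chaperones and proteases, 0 were higher and 11 lower in males (84.6% called). Under the female labels 9 were higher and 0 lower (69.2% called), which become 0 higher and 9 lower with those labels exchanged. Hspd1 was at -0.15 in males and 0.21 under the female labels, Hspa9 was at -0.18 in males and 0.15 under the female labels, and Clpx fell by 0.23 in males. Of 21 cytosolic heat shock genes, 2 were higher and 5 lower in males (33.3% called). After quantile normalization 5 were higher and 3 lower there, and the list's median of -0.01 turned to 0.01. With the female labels 14 were higher and 3 lower (81% called, median 0.13). Bag3 and Cryab, which protect contractile proteins, were 0.32 and 0.27 higher under the female labels. Dnajb1 fell by 0.16 in males. Fkbp5, which glucocorticoids are known to induce, was lower in both, at -0.21 in males and -0.18 under the female labels (limma, adjusted p = 5.8e-05 and 0.00042). Unlike Nr3c1, Fkbp5 thus did not go against the female labels, and its female difference would turn with those labels exchanged.

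Without both Krt12 libraries 1 female floxed library is left, so medians are given here in place of counts. They are median differences under the female labels, with the median from all libraries in brackets. For all genes tested the median was 0.0007 (-0.0004). The Hsp70 partners had 0.02 (0.04), the disulfide isomerases -0.03 (-0.02), the lectin chaperones 0.04 (0.04) and the prolyl isomerases -0.10 (-0.09). The sensors had 0.0095 (-0.0026), the eIF2 genes 0.01 (0.02), the targets of ATF4 and CHOP 0.0090 (-0.0072) and the death genes 0.01 (-0.0034). Degradation had 0.02 (0.0031) and translocation 0.02 (0.02). The calcium genes had 0.05 (0.06), the mitochondrial chaperones 0.06 (0.08) and the cytosolic heat shock genes 0.14 (0.13). All these lists had been chosen with earlier results known, so their counts and medians are descriptions.

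**Figure D5:**
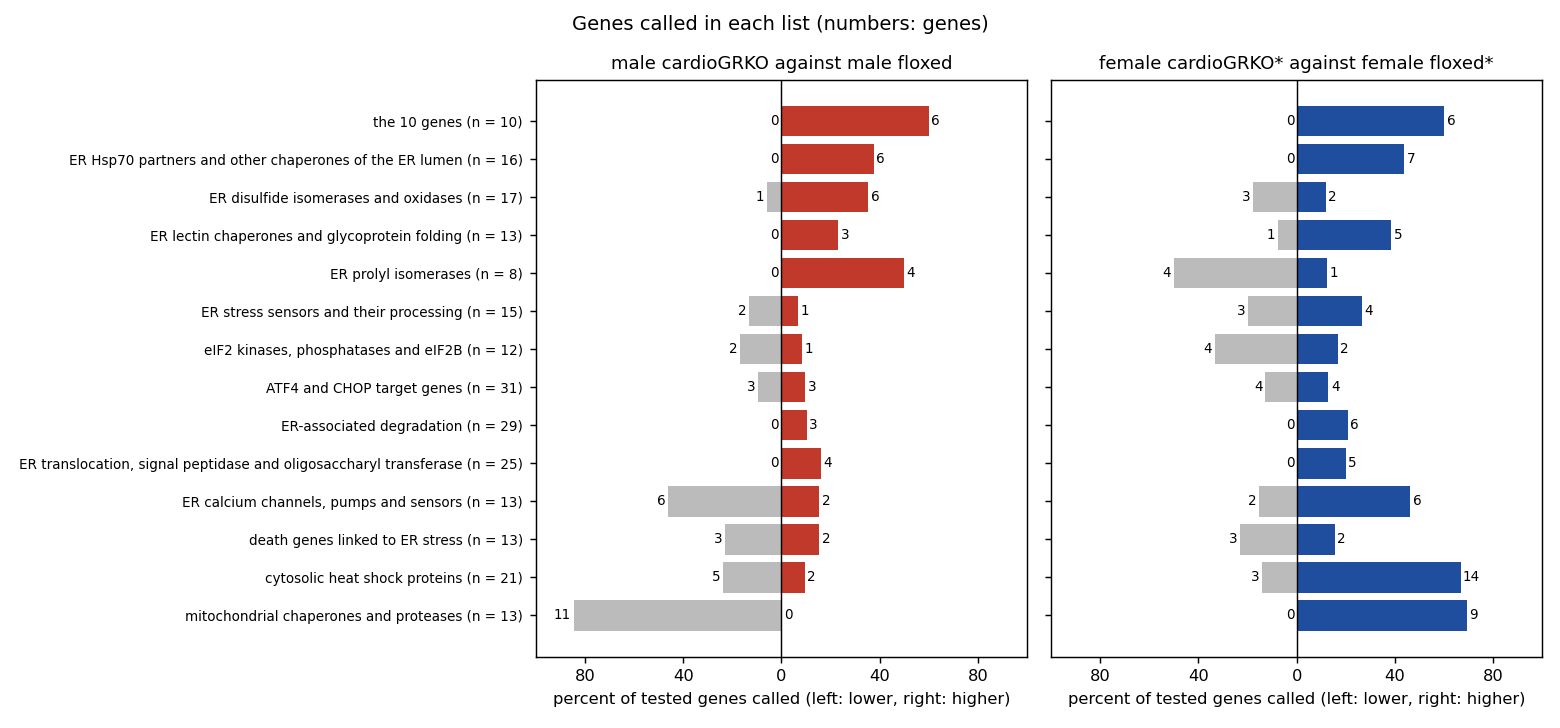
Share of the tested genes of each list that were called higher (coloured, right) or lower (grey, left) in cardioGRKO than in floxed libraries, in percent, with the number of genes at each bar, for males and under the female labels (asterisk, because Nr3c1 goes against these labels). Of the 10 listed genes 6 were higher and 0 lower in each panel, while the mitochondrial list reads 11 lower on the left and 9 higher on the right. Among all genes tested, 12.8% were higher and 14.6% lower in males, and 15.2% and 14.0% under the female labels.

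Markers of many cell types moved with the groups, but those of macrophages and of epithelium were not called in males. The part of cell types in the results was not tested. Among all genes, 27.4% were called in males and 29.3% under the female labels. Sums are over a list's normalized values on the linear scale. All 7 atrial markers were higher in male cardioGRKO hearts, where they summed to between 139000 and 139900, against 30210 to 30700 in male floxed hearts. All 7 were lower under the female labels, at 51940 to 52920 in cardioGRKO against 108700 to 112300 in floxed libraries. The 4 large rises under the female labels stood beside lower atrial markers. In males the rises of Ddit3, Pdia6, Calr, Pdia4, Hsp90b1 and Xbp1 stood beside higher ones. Of 8 markers of fibroblasts, which secrete collagens, 6 were higher in male cardioGRKO hearts (sums of 66390 to 66890 in cardioGRKO, against 60150 to 60900 in floxed libraries). Under the female labels 1 was higher and 5 lower (67210 to 67300 in cardioGRKO, against 70840 to 74940 in floxed). Of 8 tested markers of B and plasma cells, which secrete antibodies, 7 were higher in males (832.5 to 839.6 in cardioGRKO, against 637.9 to 659.6 in floxed) and 3 under the female labels (726.5 to 754.6 in cardioGRKO, against 713.0 to 726.3 in floxed).

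Of 10 cardiomyocyte markers, 7 were lower and 0 higher in males (2289000 to 2320000 in cardioGRKO, against 2430000 to 2486000 in floxed), but 4 were higher and 0 lower after quantile normalization. Under the female labels 3 were higher and 1 lower (2326000 to 2359000 in cardioGRKO, against 2297000 to 2391000 in floxed), or 1 higher and 2 lower after quantile normalization. That method gives every library the same set of values, which leaves little room for differences of genes at such high levels. The list's median was 0.00 after it, in males and under the female labels. All 8 endothelial markers were lower in males (46030 to 46550 in cardioGRKO, against 51280 to 51630 in floxed), and 5 were higher and 1 lower under the female labels (47220 to 47850 in cardioGRKO, against 43390 to 44950 in floxed). Of 10 corneal and stratified epithelial markers, 0 were called in males (5757 to 5897 in cardioGRKO, against 5818 to 6073 in floxed), and all 10 were lower under the female labels (5651 to 5977 in cardioGRKO, against 6130 to 40640 in floxed). Macrophage markers were called in 0 of 8 in males (7688 to 7913 in cardioGRKO, against 7558 to 7670 in floxed), with 3 higher and 1 lower under the female labels (7268 to 7446 in cardioGRKO, against 7019 to 7170 in floxed). The 7 smooth muscle and pericyte markers had 1 higher and 5 lower in males (27770 to 28290 in cardioGRKO, against 27440 to 28190 in floxed), and 2 higher and 3 lower under the female labels (35100 to 35240 in cardioGRKO, against 35820 to 36740 in floxed). Adipocyte markers, 7 of them tested, had 2 higher and 3 lower in males (19870 to 19920 in cardioGRKO, against 24430 to 25230 in floxed), and 6 higher under the female labels (22290 to 22870 in cardioGRKO, against 19410 to 20510 in floxed). Of 6 epicardial and mesothelial markers, 3 were higher in males (1190 to 1208 in cardioGRKO, against 978.2 to 1011 in floxed) and 4 lower under the female labels (911.8 to 932.9 in cardioGRKO, against 1151 to 1318 in floxed). No marker of these lists was at 0 in all libraries. Without both Krt12 libraries, the median difference of the epithelial markers under the female labels was -0.05, against -1.11 with them. That of the atrial markers was -1.01 both times, and that of the cardiomyocyte markers was -0.01, against 0.01.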

How the data were processed

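Transcripts were measured in 12 heart libraries, 3 per group. Libraries were made from total RNA with an Illumina TruSeq V2 kit and read on a NextSeq500, per the labels' protocols. Trim Galore, TopHat2, HTSeq, DESeq2 and the build mm9 are named in the submitters' processing notes, without versions. The authors deposited 1 table of log2 normalized values. Its values reach down to -2.20 and 4895 genes are at 0 throughout, so some shrinkage on the log scale is likely, which would make differences of low genes small. The regularized kind is inferred and not stated. Depth is unknown, and precision rests on the spread between libraries.

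The 27 symbols that had become spreadsheet dates were restored by Entrez identifier. A gene was tested where 3 or more libraries reached log2 of 10. The limma package (version 3.58.1, R 4.3.3) fitted 1 mean per group, leaving 8 residual degrees of freedom, and moderated variances along a trend with intensity. Each adjusted p is two-sided, with Benjamini-Hochberg adjustment over the 14721 genes, and genes under 0.05 are called. The contrasts were cardioGRKO minus floxed in each sex, their difference, and female minus male in each genotype. The fit was tested on simulated data with known changes.

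The members and the lists of related and marker genes were chosen with earlier results of these data known. Named genes are the 10, Nr3c1, and from each related list up to 4 called genes with the smallest p in each sex. Here up to 2 are given. Krt12 and Myh6 come from the marker lists, and the other genes with an ERSE were named after their values were seen. Promoter sequences come from RefSeq (GRCm38.p6), and all 10 genes matched. Alternatives were quantile normalization, median centring, no filter or one at log2 of 50, no trend, library weights, the replicate number as a block, only the groups compared, leaving out both Krt12 libraries, and leaving out each library. Exchanging the 2 female genotype labels was added after the data were seen. Replicate numbers were not taken as pairs, since same-numbered libraries of a sex correlated at -0.11 to 0.148, which does not exclude pairing.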

Additional observations from a re-analysis of the deposited data

Results flagged for a closer look

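For the results given here the male difference between cardioGRKO and floxed libraries was not the same as the one under the female labels, by the test of the male difference minus the female one (limma, adjusted p under 0.05). Nr3c1 goes against the female labels, so each value depends on those labels. Of the 10 genes, the value was -0.31 for Hspa5, -0.37 for Hsp90b1, -0.25 for Pdia6 and -0.22 for Calr, and it was 0.22 for Ddit3. With the female labels exchanged, the 4 negative values become positive and Ddit3 stays positive (0.14). Nr3c1 itself had -0.70.

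Among ER folding genes the value was negative for Dnajb11 (-0.20), Tmx1 (-0.68) and Canx (-0.30), and positive for P4hb (0.28), Rcn3 (0.38), Fkbp14 (0.16), Fkbp7 (0.22), Fkbp10 (0.21) and Ppib (0.14). Among sensors and translation control genes it was 0.66 for Creb3l2, -0.27 for Wfs1, -0.33 for Atf6, 0.45 for Ppp1r15a, -0.18 for Nck1 and 0.17 for Eif2b1. ATF4 and CHOP targets had 0.12 (Eif4ebp1), -0.26 (Wars), -0.11 (Gdf15) and 0.13 (Slc3a2). Degradation and translocation genes had 0.11 (Herpud1), -0.088 (Nploc4) and -0.24 (Spcs3). The calcium genes Ryr2, Atp2a2 and Hrc had -0.35, -0.40 and -0.44, and the death genes Bnip3 and Mcl1 had -0.46 and 0.15. Of the cytosolic chaperones, Dnajb1 had -0.25, Cryab -0.32 and Bag3 -0.33, and of the mitochondrial ones Clpx had -0.20, Hspa9 -0.33 and Hspd1 -0.37. Of the other genes with an ERSE, Acacb had -0.40 and Xlr3a -0.098.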

How the results depend on the processing

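These counts are over the 10 genes and the 5 contrasts, with the female labels as they stand. Under other settings 407 of 440 results, and without 1 library 555 of 600, kept their direction and their side of the threshold. Many of these could not change direction. Except for the difference of the sexes, leaving out a library outside the groups compared cannot change a difference, only its p. Changing the filter, trend or block, or fitting only the groups compared, also leaves the differences as they are. Without both Krt12 libraries, 2734 genes were called under the female labels, against 4309, and 3 of the 10 between the sexes within floxed, against 7. That number was 4 after median centring and 4 when only the groups compared were fitted, and 3 to 7 without 1 library. These causes were not tested.

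Small differences that were not called changed sign. In males Hspa5 was -0.0089 after median centring and Atf4 0.0046 after quantile normalization, and without 1 library Hspa5 ranged from -0.0094 to 0.0144 and Atf4 from -0.0252 to 0.0093. Pdia3 under the female labels was -0.0041 without both Krt12 libraries. For the male difference minus the female one, Pdia3 was 0.0483 after quantile normalization and 0.0443 without both Krt12 libraries, and without 1 library it ranged from -0.0343 to 0.0141 and Pdia4 from -0.0509 to 0.021. Between the sexes within floxed, Pdia6 was -0.0106 after median centring and -0.0055 without both Krt12 libraries, and Hsp90b1 0.0278 after quantile normalization and 0.0331 without both. Atf4 was 0.0312 after quantile normalization and 0.0166 without both. Without 1 library Pdia6 ranged from -0.0059 to 0.0133, Hsp90b1 from -0.0456 to 0.0015 and Atf4 from -0.0212 to 0.002.

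With the female genotype labels exchanged, a setting chosen after seeing the data, the differences under the female labels turn sign by construction. They become -0.3082 for Hspa5, -0.4651 for Hsp90b1, -0.0484 for Pdia3, -0.1183 for Pdia4, -0.3711 for Pdia6, -0.3200 for Calr, -0.0938 for Dnajb9, -0.0394 for Xbp1, -0.0504 for Atf4 and 0.0378 for Ddit3. The male difference minus the female one is then called in 8 of the 10, at 0.3097 for Hspa5, 0.5587 for Hsp90b1, 0.2182 for Pdia4, 0.4875 for Pdia6, 0.4223 for Calr and 0.1513 for Dnajb9, among others, with 0.0886 for Pdia3 and 0.0417 for Atf4 not called. The share of all genes called in that exchange is not given. Between the sexes within floxed, Hspa5 becomes 0.2002, Hsp90b1 0.4457, Dnajb9 0.0192 and Atf4 0.0431. Within cardioGRKO, Hspa5 becomes -0.1096, Hsp90b1 -0.1130, Pdia6 -0.1147, Calr -0.0543 and Xbp1 -0.0229.

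Same-numbered libraries of a sex correlated at -0.11 to 0.148, so the numbers were not taken as pairs. With the replicate number as a block, 3752 genes were called in males, 3988 under the female labels, 4428 for the difference of the sexes, 6359 between the sexes within floxed and 3349 within cardioGRKO. Of the 10 genes the block ended only the floxed sex calls of Calr (adjusted p = 0.066) and Xbp1 (0.057). The fit of only the groups compared could not be made for the difference of the sexes, which needs all 4. Depth is unknown, so no limit from counting can be given.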
